A study of Bos taurus with 8 samples.

Results

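The genes described here encode the machinery of oxidative phosphorylation: the nuclear-encoded subunits of respiratory complexes I to IV and of the ATP synthase (complex V), with some of their assembly factors. They were taken by name, as all probes whose gene name starts with NDUFA, NDUFB, NDUFC, NDUFS, NDUFV, UQCR or ATP5, or with COX4, COX5, COX6, COX7 or COX8, together with SDHA, SDHB, SDHC and SDHD. This gave 204 probes for 87 of the 16481 named genes on the array, and 86 of them were measurable, against 12617 of all genes. By role, the 87 were 37 complex I subunits, 4 of complex II, 8 of complex III, 15 of complex IV and 15 of complex V. The remaining 8 were NDUFA4 and its paralog NDUFA4L2, and 6 assembly or accessory factors that share the name stems (NDUFAF1 to NDUFAF4, ATP5S and ATP5SL). The rule uses gene names alone, though it was chosen with earlier results of these data known.

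Transcripts were measured on one-colour Agilent arrays in primary bovine mammary epithelial cells, taken from a Holstein cow in lactation and used at the fifth passage. Cells carried 1 of 2 short hairpin RNAs (shRNAs) against EEF1D, a subunit of the exchange factor that recharges eEF1A in translation elongation. There were 3 arrays with EEF1D-1357, 3 with EEF1D-1893 and 2 controls that the labels describe as without shRNA; they name no non-targeting hairpin, so an effect of introducing a hairpin and one of losing EEF1D cannot be told apart. All groups shared the cell source and passage, and since nothing says that the arrays came from separate cultures, p-values measure the spread between these arrays, which may be technical.

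Complexes I and II pass electrons from NADH and succinate to ubiquinone, complex III passes them on to cytochrome c, and complex IV to oxygen. The proton gradient built on the way drives the ATP synthase. Complex I joins a catalytic core (NDUFV1 and NDUFS1 among others, with further subunits encoded in mitochondrial DNA) to many supernumerary subunits that build and stabilise it. A lactating mammary cell spends much ATP on the synthesis and export of milk protein, lactose and fat.

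Levels are log2 intensities minus the 75th percentile of the same array, so that 0 marks that percentile; differences are on the log2 scale. Between 60.7% and 71.5% of probes were well above background per array. Control replicate 1 stood apart, with the lowest 75th percentile (1269.3 against 1605.1 to 2090.8 intensity units) and the lowest median correlation with the other arrays (0.968 against 0.976 to 0.981, across genes, which are not independent replicates). It shared slide 2 with all EEF1D-1893 arrays, and control replicate 2 shared slide 1 with all EEF1D-1357 arrays, so with 1 control per slide the slide and the control array cannot be told apart. EEF1D itself lay between 5.09 and 5.99 with shRNA and at 7.11 and 6.14 in the controls, a difference of -0.89 ± 0.32 (SE; limma, adjusted p = 0.242; -0.41 without control replicate 1). The cells carried epithelial markers: 6 of 7 luminal markers were well above background on every array, and 6 or 7 of 7 basal and myoepithelial ones. The summed level of the basal list was 7.57 to 7.77 with EEF1D-1357, 7.23 to 8.32 with EEF1D-1893 and 8.19 to 8.26 in the controls, and OXTR was at background on all 6 shRNA arrays but on neither control. Of markers of other cells, 6 or 7 of 8 leukocyte and 3 to 7 of 8 fibroblast ones were well above background per array. The summed fibroblast level was 0.38 to 0.59 with EEF1D-1357, 0.68 to 1.95 with EEF1D-1893 and 1.15 to 1.48 in the controls, and all 7 measured fibroblast markers were below 0 with both shRNAs, with 0 called. For leukocyte markers the sum was 2.9 to 3.36, 2.81 to 3.05 and 3.0 to 3.43. The part of these markers in the values below was not tested.

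Several results turn on the probes themselves, each a 60-base oligonucleotide in the sense of the transcript as the files list it. The 6 shown are the probes of NDUFB3 and NDUFV1, which lie near the low and high ends of GC content among the members, and a pair each for ATP5B and SDHA, whose probes gave opposite differences. Positions are those of the files on Btau_3.1, the exon or intron at each place was not looked up, and G and C are in capitals.
NDUFB3, probe A_73_104436, chr2:93966547-93966606, plus strand: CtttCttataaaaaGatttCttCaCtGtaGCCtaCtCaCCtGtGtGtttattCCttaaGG
NDUFV1, probe A_73_115021, chr29:47429150-47429209, plus strand: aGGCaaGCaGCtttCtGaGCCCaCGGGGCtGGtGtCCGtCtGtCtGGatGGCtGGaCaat
ATP5B, probe A_73_109331, chr5:61360944-61361003, plus strand: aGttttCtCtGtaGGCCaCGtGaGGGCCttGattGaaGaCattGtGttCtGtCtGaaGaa
ATP5B, probe A_73_P406256, chr5:61356711-61356770, plus strand: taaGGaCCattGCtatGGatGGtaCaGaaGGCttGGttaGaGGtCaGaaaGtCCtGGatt
SDHA, probe A_73_110324, no position in the files: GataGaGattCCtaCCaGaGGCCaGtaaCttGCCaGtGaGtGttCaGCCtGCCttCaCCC
SDHA, probe A_73_P286591, no position in the files: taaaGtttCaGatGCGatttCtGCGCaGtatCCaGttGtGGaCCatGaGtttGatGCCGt

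Oxidative phosphorylation transcripts differed little between the groups. With both shRNAs against control, the members' log2 fold changes lay between -0.41 (SDHA) and 0.51 (ATP5S), with 49 above 0, 37 below and a median of 0.04. Over all genes tested 42.8% were above 0 and 57.2% below, with a median of -0.07 and a range of -3.51 to 4.25. The split depended on the scaling: when arrays were scaled by their median, 60 members were above 0, and 52.0% of all genes. Against the same controls, 49 members were above 0 for EEF1D-1357 (41.4% of all genes) and 50 for EEF1D-1893 (46.8%), where 36 were below 0 (53.2%). For 65 of 86 members the difference was within 0.25 of 0, against 48.1% of all genes, many of them dimmer. The 95% interval of the difference lay within -1 to 1 for 84 members, the exceptions being the dim COX6A2 and COX7A1, against 66.6% of all genes; the median within-group SD was 0.16 for members and 0.26 over all genes. For EEF1D-1357 alone 83 members had such an interval (59.4% of all genes), and for EEF1D-1893 82 (62.7%). These intervals rest on 2 control arrays.

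No member passed the test. In limma over all genes with Benjamini-Hochberg adjustment, 0 of 86 members and 0% of 12617 genes had an adjusted p under 0.05 for both shRNAs against control, and the same held for EEF1D-1357 (0%), EEF1D-1893 (0%) and the hairpins against each other (0%). At an unadjusted p under 0.05, 6 members were higher and 0 lower with both shRNAs, beside 7.34% higher and 9.6% lower of all genes. The counts were 5 higher and 0 lower for EEF1D-1357 (6.23% and 9.99% of all genes) and 8 higher and 0 lower for EEF1D-1893 (6.78% and 7.32%). Both hairpin comparisons use the same 2 control arrays. Between the hairpins no member reached an unadjusted p under 0.05 (2.58% of all genes higher and 3.84% lower).

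A count that needs no model showed the same side. For 20 of 86 members (23.3%) all 6 shRNA arrays lay above both controls, against 7.7% of all genes, and for 1 member, ATP5G2, all lay below, against 9.22%. These 20 were 10 of complex I, 1 of complex II, 2 of complex III, 2 of complex IV, 2 of complex V, NDUFA4, and the factors ATP5S and NDUFAF2. They differed from the other members in their probes: the median GC content was 36.7% for the 20 and 45% for the rest, and 13 of the 30 members with a probe under 40% GC were among them but 0 of 21 at 50% or more. Over all genes the share with shRNA arrays on top also went down with probe GC content, from 13.8% under 40% to 6.07% between 40% and 50% and 1.43% above. After an adjustment for probe GC content, chosen after seeing the data, the count was 13 (15.1%, against 8.58% of all genes), of which 10 were among the 20, and 2 members lay below (8.54%). With normexp background correction and quantile normalization it was 11 above (7.62%) and 2 below (8.25%).

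**Figure D1:**
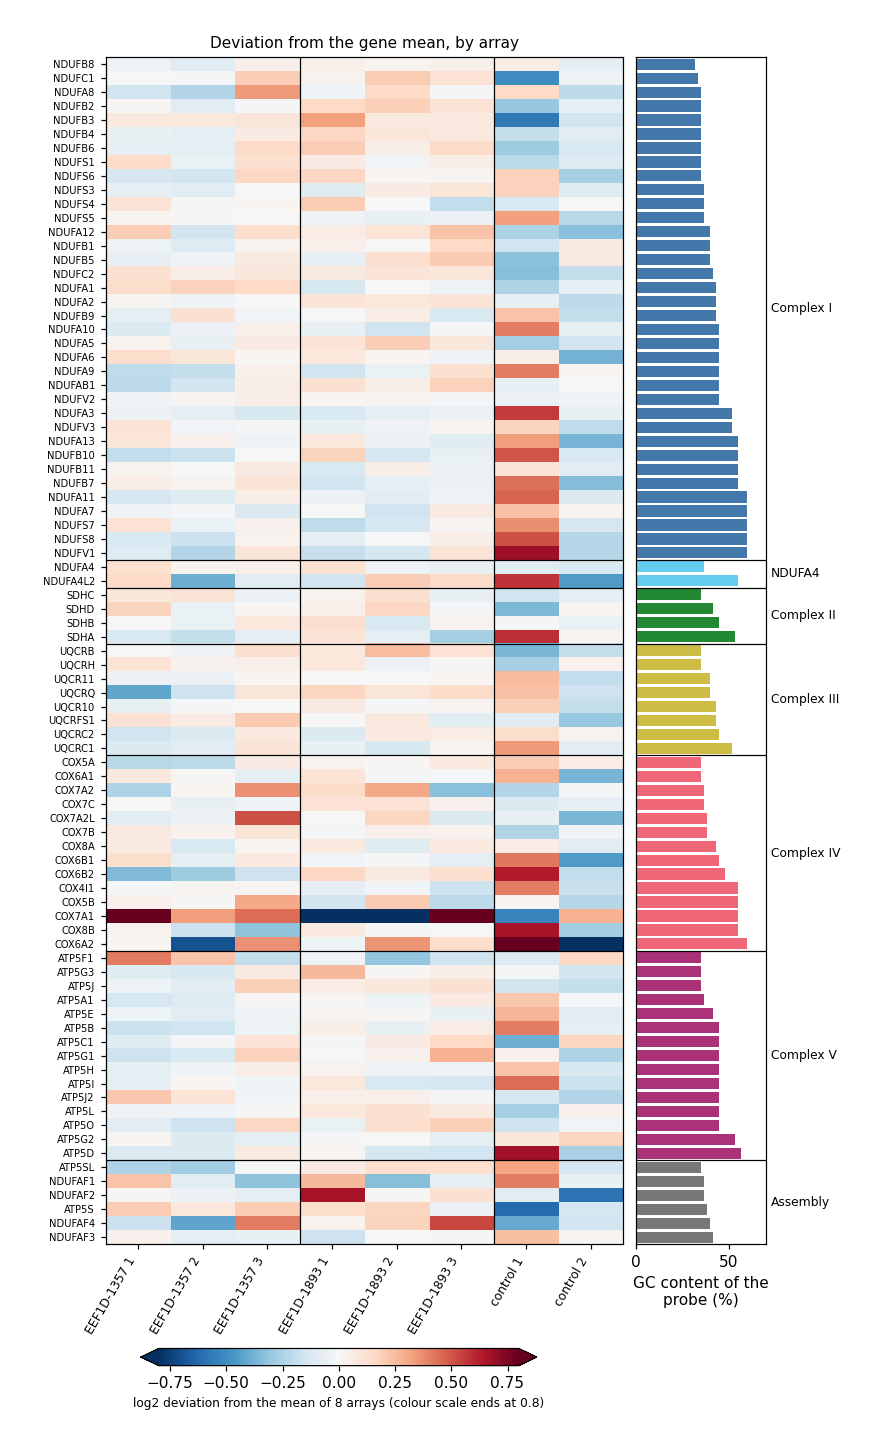
Deviation of each measured member but 1 (rows, grouped by complex and ordered by probe GC content within each) from its mean over 8 arrays, on the log2 scale, for each array (columns), with the GC content of the probe in percent as bars on the right. Colours run from blue (lower) to red (higher) and end at 0.8 in size; the column of control replicate 1 turns from blue at low to red at high GC content, while most other cells are pale.

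Complex I takes electrons from NADH. Its 37 subunits had a median difference of 0.04 (range -0.34 to 0.48, with 22 above 0 and 15 below). At an unadjusted p under 0.05 in limma, 4 of them were higher and 0 lower, beside 7.34% higher and 9.6% lower of all genes. NDUFC2, a membrane-arm subunit, read 4.85, 4.78 and 4.82 with EEF1D-1357, 4.80, 4.83 and 4.82 with EEF1D-1893 and 4.39 and 4.54 in the controls. All 6 shRNA arrays were above both controls and nearly level with each other; the difference was 0.35 ± 0.11 (SE; limma, unadjusted p = 0.0147, adjusted p = 0.213), and 0.28 without control replicate 1. A second probe of NDUFC2 gave 0.25.

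NDUFB3, another supernumerary membrane-arm subunit, had the largest difference of complex I, 0.48 ± 0.15 (SE; limma, adjusted p = 0.216). Its levels were 3.43, 3.43 and 3.45 with EEF1D-1357, 3.68, 3.43 and 3.43 with EEF1D-1893, and 2.79 and 3.20 in the controls. The controls were both lowest and lay 0.41 apart, more than the shRNA arrays among themselves; without control replicate 1 the difference was 0.27, and without control replicate 2 it was 0.68. NDUFA12, a subunit of the arm that binds NADH, read 4.16 to 4.54 with shRNA and 4.06 and 3.98 in the controls (0.39 ± 0.14 SE; limma, adjusted p = 0.24). NDUFA5, of the same arm, read 4.51 to 4.77 against 4.30 and 4.42 (0.28 ± 0.11 SE; limma, adjusted p = 0.281). For both, the groups did not overlap. NDUFA1 (0.32 with EEF1D-1357, unadjusted p = 0.0427 in limma) and NDUFB2 (0.34 with EEF1D-1893, unadjusted p = 0.0377) reached that level with 1 hairpin each, and the difference between hairpins was 0.22 and -0.18, with limma unadjusted p-values above 0.05.

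The 7 nuclear core subunits had a median difference of -0.16 and the 30 supernumerary ones of 0.05. NDUFV1, which carries the NADH site, read 4.32, 4.19 and 4.52 with EEF1D-1357, 4.24, 4.29 and 4.53 with EEF1D-1893, and 5.11 and 4.20 in the controls. Control replicate 1 was the highest array and control replicate 2 lay among the shRNA arrays, so the difference of -0.31 ± 0.24 (SE) was 0.15 without control replicate 1 and -0.76 without control replicate 2. NDUFS1, the largest core subunit, had 0.22 ± 0.12 (SE) and kept all shRNA arrays (2.23 to 2.43) above both controls (2.07 and 2.18). Its 5 probes differed in sign, from -0.10 to 0.30. NDUFV2 also kept all shRNA arrays above both controls, with the smallest spread of any member (within-group SD 0.03): 5.69 to 5.77 with shRNA against 5.67 and 5.68. The core median was 0.1 without control replicate 1 and -0.42 without control replicate 2, and for the supernumerary subunits 0.14 and -0.03. After the adjustment for probe GC content the core and supernumerary medians were 0.02 and 0.13, and with median scaling -0.07 and 0.14.

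Complex II, succinate dehydrogenase, also belongs to the citrate cycle. SDHA, its flavoprotein, had the lowest difference of all members, -0.41 ± 0.18 (SE; limma, unadjusted p = 0.059, adjusted p = 0.311). It read 5.51, 5.44 and 5.56 with EEF1D-1357, 5.74, 5.55 and 5.36 with EEF1D-1893 and 6.22 and 5.65 in the controls. Control replicate 1 was highest, and EEF1D-1893 replicate 1 lay above control replicate 2, so the groups overlapped. The iron-sulfur subunit SDHB differed by 0.05 ± 0.12 (SE), and the membrane anchors SDHC and SDHD by 0.16 ± 0.12 and 0.23 ± 0.15 (SE). Of these SDHC kept the groups apart (4.0 to 4.19 against 3.90 and 3.98), but its 3 probes differed in sign, from -0.24 to 0.16.

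In complex III, the cytochrome bc1 complex, 8 subunits were measured, with a median of -0.02. UQCRB, which lies at the ubiquinone site, read 5.03, 5.0 and 5.17 with EEF1D-1357, 5.12, 5.28 and 5.15 with EEF1D-1893 and 4.67 and 4.84 in the controls. All shRNA arrays were above both controls, by 0.37 ± 0.12 on average (SE; limma, unadjusted p = 0.0192, adjusted p = 0.227), and the difference was 0.28 without control replicate 1. A second UQCRB probe gave 0.10, with 2.06 to 2.84 against 2.61 and 2.02, so there the groups overlapped. The Rieske protein UQCRFS1, which takes electrons from ubiquinol within the complex, was likewise apart (4.46 to 4.75 against 4.45 and 4.24; 0.27 ± 0.12 SE; limma, adjusted p = 0.323). The core proteins UQCRC1 and UQCRC2 differed by -0.17 ± 0.15 and -0.11 ± 0.13 (SE).

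Complex IV, cytochrome c oxidase, has tissue isoforms of several subunits, and 14 of its 15 genes were measured. COX4I2, the lung-type form of subunit 4, was well above background on 0 of 8 arrays and had no measurable level. COX4I1, the common form, read 6.13, 6.17 and 6.16 with EEF1D-1357, 6.08, 6.12 and 5.98 with EEF1D-1893, and 6.56 and 5.97 in the controls, so the shRNA arrays lay between the controls (-0.16 ± 0.17 SE). COX5A and COX5B differed by -0.17 ± 0.13 and 0.14 ± 0.17 (SE). The common forms COX6A1 (0.07 ± 0.18 SE), COX7A2 (0.17 ± 0.23 SE) and COX8A (0.02 ± 0.13 SE) were well above background on all arrays, and COX7A2L, which takes part in supercomplex assembly, had 0.28 ± 0.20 (SE). The smallest p-values of this complex with both shRNAs were those of COX7B (0.18 ± 0.12 SE; limma, adjusted p = 0.45) and COX7A2L. With EEF1D-1357 it was the testis-type COX6B2 (-0.48, limma adjusted p = 0.351). It read 0.47 to 0.66 there, 0.90 to 0.99 with EEF1D-1893, and 1.46 and 0.63 in the controls. A second COX6B2 probe gave -0.77 with EEF1D-1357 and -0.61 between the hairpins. There EEF1D-1357 read -2.25 to -2.07, EEF1D-1893 -1.69 to -1.44, and the controls -0.91 and -1.89. With EEF1D-1893 the smallest p-value was that of COX7C (0.17, limma adjusted p = 0.543). COX7C read 6.02 to 6.19 with shRNA and 5.97 and 6.01 in the controls, and its 3 probes gave 0.12 to 0.38.

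The muscle-type isoforms were dim. COX6A2 was well above background on 5 arrays, with levels of -5.88 to -4.82 with shRNA and -4.39 and -6.12 in the controls, and COX8B was on 7. COX7A1, also on 7, had by far the widest spread of the members (within-group SD 1.22): -2.64, -3.44 and -3.33 with EEF1D-1357, -5.23, -5.54 and -2.22 with EEF1D-1893, and -4.31 and -3.50 in the controls. EEF1D-1893 replicate 3 was the highest array and the other EEF1D-1893 arrays the lowest. A second COX7A1 probe, shifted by 21 bases, also had EEF1D-1893 replicate 3 far above replicates 1 and 2 (-2.72 against -6.12 and -6.09). Its difference between the hairpins, 1.19 in EEF1D-1357 minus EEF1D-1893, had a limma adjusted p of 0.761.

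Complex V, the ATP synthase, showed a median of -0.03 over 15 genes, with 14 differences within 0.25 of 0. Among the F1 subunits, those now named ATP5F1A, ATP5F1B and ATP5F1C are ATP5A1, ATP5B and ATP5C1 on the array. They differed by -0.13 ± 0.12, -0.22 ± 0.15 and 0.14 ± 0.17 (SE). Their levels with shRNA were 6.44 to 6.65, 6.49 to 6.72 and 5.05 to 5.31. In the controls they were 6.80 and 6.57, 7.07 and 6.59, and 4.76 and 5.32. At these probes, the brightest of each gene, each set overlapped the controls. For ATP5C1, probe A_73_P388426 gave 0.45, with 3.22 to 3.45 against 2.66 and 3.1. Probe A_73_P493833 gave 0.47, with 1.61 to 1.84 against 1.21 and 1.38. Both kept all shRNA arrays above both controls. The remaining ATP5C1 probe, A_73_P049701, gave 0.09 and overlapped, with 4.65 to 4.83 against 4.52 and 4.77. The smallest p-values belonged to ATP5J2 (now ATP5MF; 0.25 ± 0.12 SE; limma, adjusted p = 0.341) and ATP5J (now ATP5PF; 0.23 ± 0.12 SE; limma, adjusted p = 0.382), small subunits whose shRNA arrays lay above both controls. A second ATP5J2 probe gave 0.00, with 2.25 to 2.88 against 2.65 and 2.45, so there the groups overlapped. The 3 genes for the c subunit of the rotor ring encode the same mature protein. Of these ATP5G1 had 0.14 ± 0.16 and ATP5G3 0.11 ± 0.13, whereas ATP5G2 (-0.17 ± 0.11 SE) read 5.64 to 5.77 with shRNA and 5.84 and 5.92 in the controls, the 1 member with all shRNA arrays below; its difference was 0.03 after the adjustment for probe GC content.

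ATP5S (now DMAC2L), an accessory factor of the ATP synthase, had the largest positive difference of all members. It read 0.36, 0.24 and 0.36 with EEF1D-1357, 0.30, 0.33 and 0.11 with EEF1D-1893 and -0.46 and 0.02 in the controls. All shRNA arrays were above both controls, by 0.51 ± 0.16 on average (SE; limma, unadjusted p = 0.015, adjusted p = 0.215), but the controls lay 0.48 apart and the difference was 0.27 without control replicate 1. The complex I assembly factor NDUFAF2 was also apart, at -0.13 to 0.60 against -0.15 and -0.65 (0.46 ± 0.21 SE; limma, adjusted p = 0.324). NDUFAF4 had 0.37 ± 0.24 (SE), NDUFAF3 -0.17 ± 0.13, ATP5SL (now DMAC2) -0.12 ± 0.16, and NDUFAF1, well above background on 3 arrays, -0.24 ± 0.23. NDUFA4, now placed with complex IV, read 5.96 to 6.15 against 5.92 and 5.90 (0.15 ± 0.12 SE), and its dim paralog NDUFA4L2 differed by -0.08 ± 0.28 (SE).

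**Figure D2:**
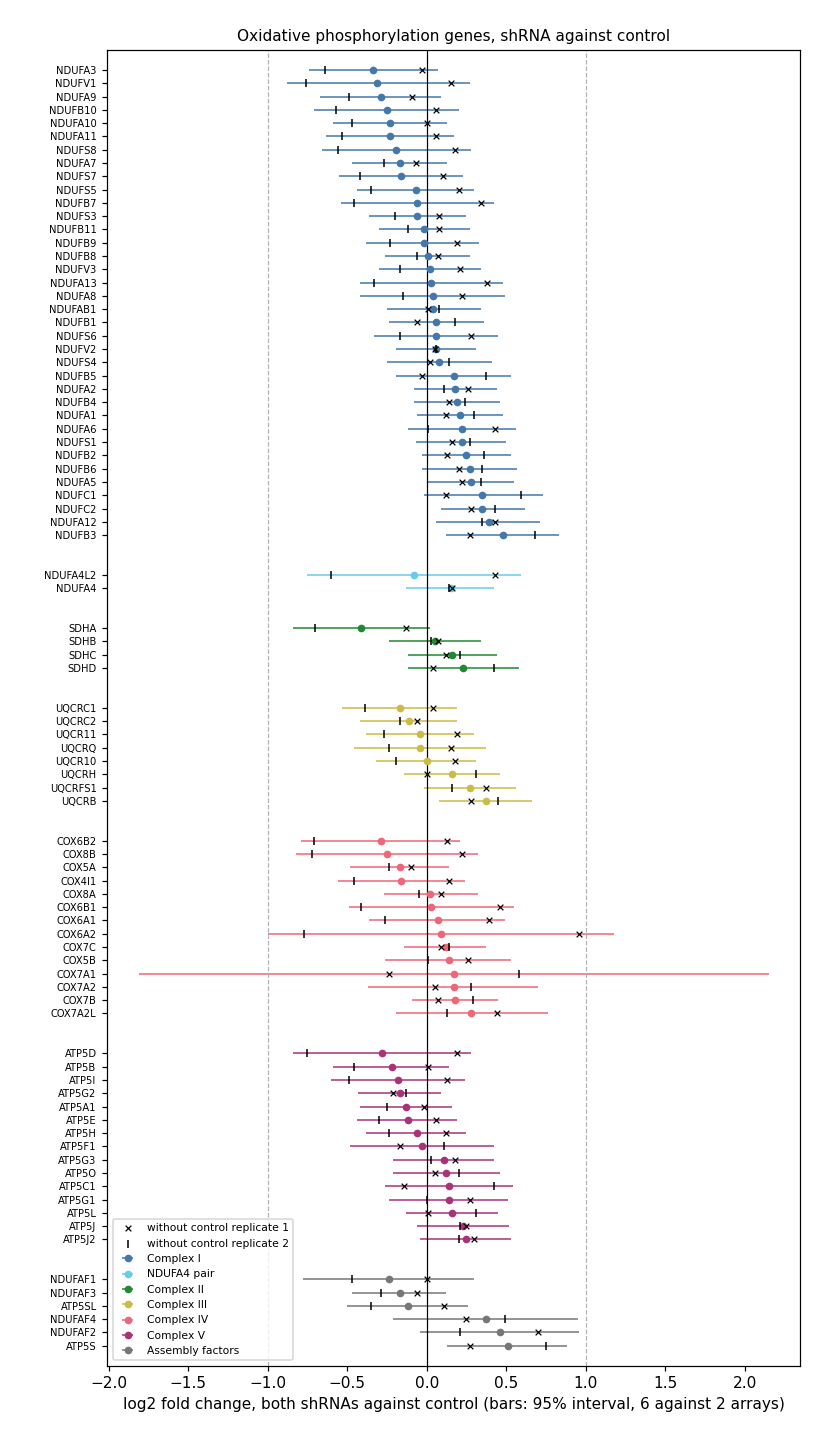
Difference between the 6 shRNA arrays and the 2 controls, as a log2 fold change, for each measured member but 1, by complex, with its 95% interval as a bar and the value without either control array as a cross or a tick. All intervals but those of COX6A2 and COX7A1 lie within -1 to 1 (dashed lines), and 6 lie wholly above 0 and 0 wholly below. Each point lies midway between its cross and its tick by construction, so their distance shows how far the controls differ.

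The control arrays pulled many members apart. Control replicate 1 was the highest of the 8 arrays for 42 members and the lowest for 21, together 73.3% of members against 59.4% of all genes, and control replicate 2 was the highest for 2 and the lowest for 31. The deviation of control replicate 1 from the mean of the other arrays went with the GC content of the probe: r = 0.57 across the 86 members and 0.38 across 12617 genes, given as descriptions, since the probes share 1 array and its depth. For the other arrays this r over members lay between -0.4 and 0.05. Members with probes at 50% GC or more were 0.51 higher in control replicate 1 (median), and those under 40% were 0.13 lower. NDUFV1 at 60% GC and NDUFB3 at 35%, whose probes are printed above, deviated by 0.78 and -0.64. The part of probe GC content, depth or slide in any single difference was not tested.

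**Figure D3:**
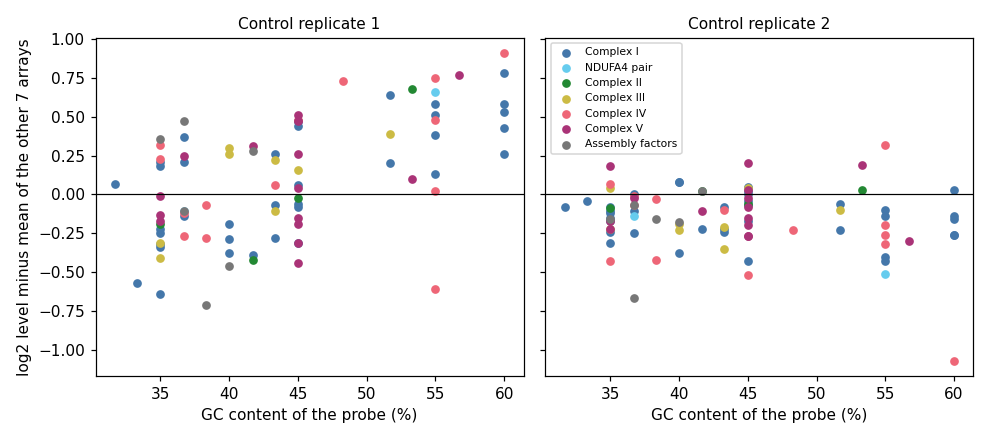
Log2 level of each measured member in control replicate 1 (left) and control replicate 2 (right) minus the mean of the other 7 arrays, against the GC content of its probe in percent, coloured by complex. Points rise with GC content on the left (r = 0.57 over 86 members) and not on the right (r = -0.17).

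The 1 control array left in changes the sign of the median. It also moved the share above 0, which was 80.2% of members and 56.8% of all genes without control replicate 1. These shares were 46.5% and 36.9% without control replicate 2. Without control replicate 1 the members' median was 0.12 with 69 of 86 above 0 (all genes 0.06), 44 members had all shRNA arrays above the remaining control (24.8% of all genes) and 2 below (16.8%), and 0 members were called, beside 26 genes or 0.206%. Without control replicate 2 the median was -0.09 with 40 above 0 (all genes -0.21), 28 members lay above (22.3%) and 43 below (41.9%), and 17 members were called (4 higher, 13 lower), beside 23.2% of all genes; for EEF1D-1357 alone it was 13, beside 23.1%. Among these 17, ATP5S (0.75), NDUFB3 (0.68), NDUFC1 (0.59) and NDUFC2 (0.43) were higher and ATP5D (-0.75), NDUFV1 (-0.76), COX6B2 (-0.71) and SDHA (-0.70) were among the lower. Each of these contrasts sets the shRNA arrays against 1 control, whose spread is assumed to equal that of the shRNA groups. Per slide, the median difference was 0.11 on slide 1 and -0.08 on slide 2, against 0.03 and -0.19 over all genes.

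With slide as a block in limma, 8 members were called for EEF1D-1893 against control, beside 14.7% of all genes. Of these ATP5S (0.71), NDUFB3 (0.72) and NDUFC1 (0.61) were higher, and ATP5D (-0.77), NDUFA3 (-0.64), NDUFB7 (-0.54), NDUFA11 (-0.52) and COX4I1 (-0.50) lower. This block compares EEF1D-1893 with control replicate 1 alone. Adding the adjustment for probe GC content left 5 called, all higher (ATP5C1, ATP5L, ATP5S, NDUFA5 and NDUFC2), beside 6.29% of all genes, and ATP5S was in both sets. For both shRNAs the block called ATP5S alone (limma, adjusted p = 0.0479), beside 5.7% of all genes, and 0 members with the GC adjustment added, beside 2.53%; for EEF1D-1357 it called 0 members, beside 0.222%.

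Where a gene had several probes they mostly showed the same side. Of 59 members with at least 2 measurable probes, 43 had differences of 1 sign, and the median gap between the lowest and the highest probe was 0.13. Some probes of a gene share most of their bases, as those of ATP5G1 and of COX8A do, so part of this agreement was given in advance. The widest gap was that of SDHA (1.37): 3 probes gave -0.41, -0.58 and -0.56, and A_73_P286591 gave 0.79. That probe read -0.26 to -0.01 with shRNA and -1.36 and -0.57 in the controls, so its shRNA arrays were above both controls, while for the other 3 probes control replicate 1 was the highest array. ATP5B came next (0.94): the probe nearest the 5′ end of the mapped gene, A_73_P406256, gave 0.63, with 2.10 to 2.44 against 1.32 and 1.94, and the other 4 gave -0.31 to -0.22. Control replicate 1 deviated by -0.89 from the other arrays at the 5′ ATP5B probe and by 0.47 at the printed 3′ probe, both of 45% GC. At the 5′ probe all shRNA arrays were above control replicate 2 as well. NDUFA6 (0.22 and -0.36) and ATP5SL (-0.12 and 0.43) also had gaps over 0.5. Across the 40 members with 5′ and 3′ probes at least 60 bases apart, the 5′ minus 3′ median deviated by -0.06 in control replicate 1 and by -0.01 to 0.02 elsewhere; over 5068 genes it was 0.03 and -0.03 to 0.0. Of the 13 member probes at background on all arrays, 12 were designed on sequences other than RefSeq transcripts, and 4 lay on the strand opposite to the gene's main probe.

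**Figure D4:**
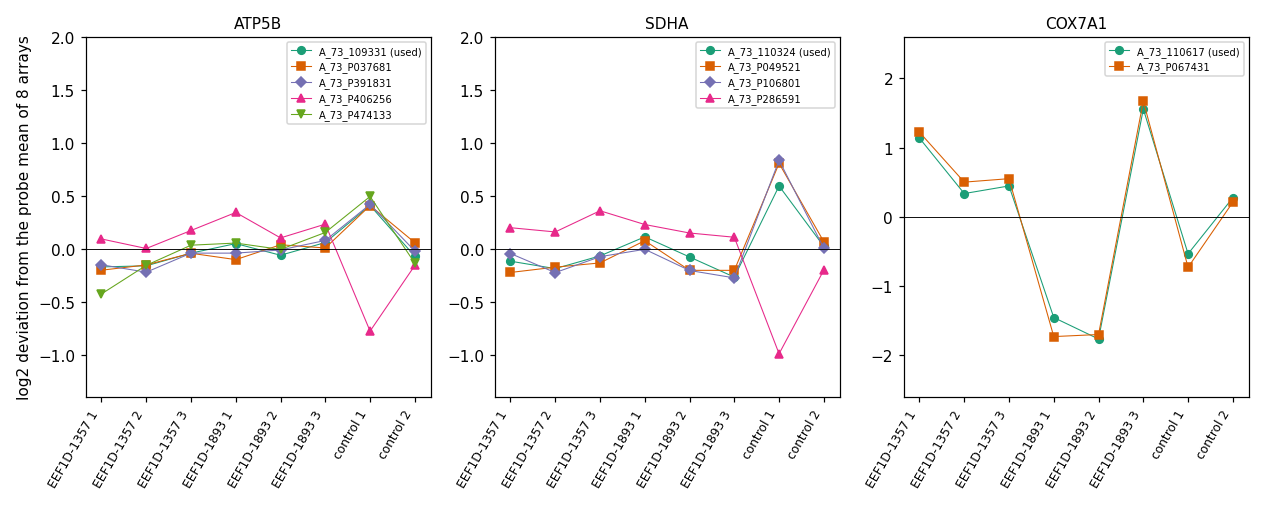
Log2 deviation of each measurable probe of ATP5B, SDHA and COX7A1 from its own mean over 8 arrays (vertical axis; wider scale for COX7A1), for each array on the horizontal axis, with 1 line per probe. A single probe each of ATP5B and SDHA lies lowest in control replicate 1, where the other probes of the gene peak; both COX7A1 probes follow each other, with EEF1D-1893 replicate 3 highest.

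The hairpins differed little from each other in these genes. EEF1D-1357 minus EEF1D-1893 had a median of -0.03 over members (-0.05 over all genes), 78 of 86 differences were within 0.25 of 0 (62.3% of all genes), and the 95% interval lay within -1 to 1 for 84 members, against 71.9% of all genes. Of the differences 32 were above 0, against 41.5% of all genes. When arrays were scaled by their median, the members' median was 0.03 and 49 were above 0, with 51.4% of all genes. By complex, the smallest p-values were those of NDUFA1 (0.22) and NDUFAB1 (-0.22) in complex I, SDHA (-0.05) and SDHC (0.02) in complex II, UQCRQ (-0.30) and UQCRFS1 (0.13) in complex III, and COX6B2 (-0.39) and COX7A1 (1.19) in complex IV. In complex V they were ATP5F1 (0.32; now ATP5PB, of the stalk) and ATP5G3 (-0.16), and among the factors ATP5SL (-0.29) and NDUFAF2 (-0.30). Their limma adjusted p-values were all at least 0.747. Each hairpin lies on its own slide, so hairpin and slide cannot be told apart.

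Some members are neighbours on Btau_3.1. ATP5D, NDUFS7 and UQCR11 have their probes on chromosome 7 at 42709734, 42837492 and 42995588, and differed by -0.28, -0.16 and -0.04. These probes had 56.7%, 60% and 40% GC. After the adjustment for probe GC content the differences were -0.07, 0.05 and -0.03. NDUFV1 and NDUFS8 lie 162 kb apart on chromosome 29 and differed by -0.31 and -0.19, both with probes of 60% GC.

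Other mitochondrial genes, from lists written for this tissue and treatment, showed 0 calls after adjustment in any contrast of the main fit. With slide as a block, genes with a limma adjusted p under 0.05 for both shRNAs included ATP8 and ATPAF2 (0.0433 each). CYCS (0.0462), DLST and SUCLA2 (0.0358 each) were also under 0.05 there, beside 5.7% of all genes. Of 11 measured genes of mitochondrial DNA, which complete complexes I, III, IV and V, the median was -0.02 with both shRNAs; ATP8 had 0.60 and ND4L -0.35 (limma, adjusted p = 0.281 and 0.266). ATP8 read 3.03 to 3.40 with shRNA and 2.12 and 3.08 in the controls, and was 0.12 higher without control replicate 1. Among 38 further assembly factors the median was -0.03, with 3 higher and 2 lower at an unadjusted p under 0.05, beside 7.34% and 9.6% of all genes, led by ATPAF2 (-0.64), which chaperones the F1 alpha subunit, and COA6 (0.44), a complex IV copper factor. COA5 (0.54 with EEF1D-1357) came next. Without control replicate 1, ATPAF2 was at -0.30 and COA6 at 0.30 with both shRNAs.

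Among the mitochondrial genes named here, cytochrome c had the largest difference with both shRNAs. CYCS, the carrier between complexes III and IV, read 2.39, 2.37 and 2.80 with EEF1D-1357, 2.70, 2.66 and 2.62 with EEF1D-1893 and 1.66 and 2.02 in the controls. All shRNA arrays were above both controls, by 0.75 ± 0.17 (SE; limma, unadjusted p = 0.00287, adjusted p = 0.153), and by 0.57 without control replicate 1. The 19 electron carrier and entry genes had a median of -0.08 (2 higher, 1 lower at an unadjusted p under 0.05), with COQ7 at 0.37 and, for EEF1D-1893, PRODH at -1.12. The counts of this list and of those below stand beside 7.34% higher and 9.6% lower of all genes. The 17 citrate cycle genes had 0.00 (3 higher, 2 lower), led by IDH3G at -0.46 and DLST at 0.59. Without control replicate 1, IDH3G was at -0.35 and DLST at 0.20. The 15 biogenesis regulators had -0.18 (1 higher, 1 lower), with MTERF3 at 0.37, YY1 at -0.32 and, for EEF1D-1357, the coactivator PPRC1 at -0.54. The 14 carriers and inner membrane genes had 0.06 (1 higher, 0 lower), led by the outer membrane channel VDAC2 at 0.42.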

How the data were processed

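Total RNA was labelled with Cy3 and hybridised to 8 one-colour arrays. Per the file headers, the deposited intensity values are Agilent Feature Extraction 10.7.3.1 processed signals (the submitters' processing notes name version 9.1), background-subtracted and not normalized between arrays. The authors' deposited value table holds log2 values with a median of 7.55 on every array; it correlated at 0.998 to 1 with the scanner values and served as an alternative. The probe flags (well above background, outlier, saturated) are used as deposited per the file headers.

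Here each array's log2 intensity was reduced by its 75th percentile, 214 of 43653 probes with outlier spots were left out, and no spot was saturated. A probe had to be well above background on 2 or more arrays, and the brightest such probe stood for its gene, which left 12617 genes. limma 3.58.1 in R 4.3.3 (lmFit and eBayes; 5 residual and 2.13 prior degrees of freedom) was fitted over all groups and genes with Benjamini-Hochberg adjustment at 0.05; errors after ± are its SEs. The fit was tested on simulated data. Alternatives were the background correction, scaling, filter, probe rule, slide and replicate blocks, each array left out and, chosen after seeing the data, an adjustment for probe GC content.

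The genes named were those with the smallest p in each complex and contrast, genes whose probes differed in sign, core subunits and tissue isoforms; other members were named after their values were seen. The values of 1 member are not reported here, though counts and medians include it. The members and lists were chosen with earlier results of these data known. Current names came from RefSeq's ARS-UCD2.0 table. Promoters and proteins were not analysed here. The number of arrays limits the precision.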

Additional observations from a re-analysis of the deposited data

How the results depend on the processing

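No member was called with other background corrections, scalings, filters, probe rules or the deposited table; calls of members arose with the slide block or without control replicate 2. All values are log2 unless they are counts, and the cause of each change was not tested. Leaving out each array gave, for both shRNAs, EEF1D-1357 and EEF1D-1893 against control in turn, 0 to 17, 0 to 13 and 0 to 8 members called, 0 to 2922, 0 to 2911 and 0 to 1853 genes, and member medians of -0.09 to 0.12, -0.09 to 0.11 and -0.08 to 0.13. The count of members with all shRNA arrays above the controls then ranged from 20 to 44, beside 8.19% to 24.8% of all genes. Below the controls it ranged from 1 to 43, beside 9.92% to 41.9%. The highest of these counts come from fits with 1 control left. With slide as a block, 719, 28 and 1853 genes and 1, 0 and 8 members were called, and 6 genes between hairpins; the member medians were 0.11 for EEF1D-1357, -0.08 for EEF1D-1893 and 0.18 between hairpins. With the GC adjustment added these were 319, 28, 794 and 8 genes, and 5 members for EEF1D-1893. Median scaling gave member medians of 0.13 for both shRNAs and 0.14 for EEF1D-1357, where the median of all genes went from -0.09 to 0.03. Trend and robust prior called 2 genes for both shRNAs and 2 for EEF1D-1357, the filter on all 8 arrays 3 for EEF1D-1357, and normexp 1 between hairpins. Members with all shRNA arrays above the controls numbered 11 with normexp, 13 with quantile normalization (8.26% of all genes), 13 with the deposited table (8%) and 13 after GC adjustment, but 24 with median scaling (1350 of 12617 genes) and 15 with the mean of probes (7.62%). Below the controls there were 2, 3, 3 and 2 (8.25%, 8.92%, 8.77% and 8.54% of all genes), and 0 with the last 2 settings (6.65% and 8.43%).

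Members named by the rule whose sign turned, or reached 0, under a setting are given with their value there. With normexp the sign turned for both shRNAs in ATP5A1 (0.01), and between hairpins in NDUFA3 (0.00) and SDHC (-0.01). With the GC adjustment the sign turned for both shRNAs in ATP5G2 (0.03), ATP5G3 (-0.02), COX4I1 (0.04), COX6A1 (-0.06), NDUFA4L2 (0.12) and UQCRC1 (0.02), and between hairpins in NDUFA3 (0.07) and SDHA (0.03). With the slide block the sign turned between hairpins in ATP5SL (0.17), COX6B2 (0.45), NDUFA3 (0.61), NDUFAF2 (0.20), SDHA (0.52), SDHC (-0.07) and UQCRQ (0.10). With the replicate block the sign turned for both shRNAs in COX6A2 (-0.02), COX7A1 (-0.31) and COX8A (0.00). With the mean of probes the sign turned for EEF1D-1893 in NDUFA1 (-0.21), and for EEF1D-1357 in NDUFA6 (-0.08), and for both shRNAs in NDUFA6 (-0.07), and between hairpins in NDUFV3 (-0.09), SDHA (0.00) and UQCRC1 (-0.03). With median scaling the sign turned between hairpins in NDUFA3 (0.06) and SDHA (0.02), and for both shRNAs in NDUFA4L2 (0.00). When each array was left out, the sign turned for both shRNAs in ATP5B (-0.46 to 0.01), ATP5C1 (-0.14 to 0.42), ATP5G1 (0.00 to 0.27), COX4I1 (-0.46 to 0.14), COX6A1 (-0.26 to 0.39), COX6A2 (-0.77 to 0.96), COX6B2 (-0.71 to 0.13), COX7A1 (-0.36 to 0.58), COX8A (-0.05 to 0.09), COX8B (-0.72 to 0.22), NDUFA4L2 (-0.60 to 0.43), NDUFV1 (-0.76 to 0.15) and UQCRC1 (-0.39 to 0.04), and for EEF1D-1893 in ATP5B (-0.39 to 0.09), and between hairpins in NDUFA3 (-0.02 to 0.02), SDHA (-0.14 to 0.05), SDHC (-0.03 to 0.06) and UQCRC1 (-0.04 to 0.06). Of the other members named, the sign turned or reached 0 for both shRNAs without control replicate 1 in ATP5D (0.19), ATP5SL (0.11), NDUFA11 (0.06), NDUFAF1 (0.00), NDUFB7 (0.34), NDUFS7 (0.10), NDUFS8 (0.18), UQCR11 (0.19) and UQCRQ (0.15), without control replicate 2 in ATP5F1 (0.11), and with the GC adjustment in NDUFB7 (0.14), NDUFS7 (0.05), NDUFS8 (0.02) and UQCRC2 (0.01).

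With the replicate number as a block, 0 members and 0 genes were called in any contrast; same-numbered arrays correlated at -0.115 to 0.142 in their deviations, not every pair above 0.1, so the numbers were not taken as pairs. COX4I2 and the 13 probes at background have no measurable level.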
